A study of Mus musculus with 8 samples.

Results

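The comparison is between cDC1 and cDC2, the kinds of conventional dendritic cell of the spleen, in wild-type mice. It rests on 4 of the 8 libraries of the series, 2 of wild-type cDC1 and 2 of wild-type cDC2, which were taken by their labels and numbered replicate 2 and replicate 3 in each group. All were sorted from the spleens of C57BL/6 animals that had the genotype WT and were untreated. The other 4 libraries served only to describe levels. They hold cDC1 of the genotype Zeb2 -165(d1+2+3) and cDC2 of the genotype Irf8 +32-/-. No source used here gives the sort gates, the animals behind a library or what a replicate number stands for. The p-values therefore measure only the spread between these samples, which may be technical.

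Conventional dendritic cells show captured antigen to T cells. cDC1 depend on the transcription factor IRF8, take up dead cells and are known for loading antigen from them onto MHC class I for CD8 T cells, a process called cross-presentation. cDC2 depend less on IRF8 and more on IRF4, ZEB2 and, in part, Notch signals, and are known for presenting antigen on MHC class II to CD4 T cells. The classes below follow the path of an antigen through the cell and then the signals the cell receives and sends.

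The 4 libraries held 55638451 to 58611821 counts each, and 18749 genes passed the filter on low counts. The genes that mark the subsets followed the labels. Xcr1, the chemokine receptor that marks cDC1 (ENSMUSG00000060509, chromosome 9, 123852315 to 123862029, GRCm38), was at 693 and 687 CPM in cDC1 against 3.73 and 3.38 in cDC2 (194-fold higher; log2 fold change 7.60, SE 0.18, edgeR adjusted p = 1.3e-05). Irf8 (ENSMUSG00000041515, chromosome 8, 120736358 to 120756694) was at 3229 and 3638 CPM in cDC1 against 125 and 103 in cDC2 (30.2-fold higher; log2 fold change 4.91, SE 0.19, edgeR adjusted p = 2.6e-05). Sirpa, the surface receptor that marks cDC2 (ENSMUSG00000037902, chromosome 2, 129592835 to 129632228), was at 2.57 and 1.88 CPM in cDC1 against 907 and 864 in cDC2 (398-fold lower in cDC1; log2 fold change -8.64, SE 0.24, edgeR adjusted p = 1.3e-05). Zeb2 (ENSMUSG00000026872, chromosome 2, 44983632 to 45117395) was at 2.07 and 2.1 CPM in cDC1 against 199 and 198 in cDC2 (95.1-fold lower; log2 fold change -6.57, SE 0.17, edgeR adjusted p = 1.3e-05). Values are counts per 1000000 scaled by TMM (CPM), and fold changes set cDC1 against cDC2. A gene was called where edgeR's quasi-likelihood test gave a p under 0.05 after Benjamini-Hochberg adjustment. Of 10 cDC1 markers tested, 9 were higher in cDC1. The exception was Wdfy4, a gene needed for cross-presentation, at 2093 and 4247 CPM in cDC1 against 1754 and 1578 in cDC2 (adjusted p = 0.0704). All 11 cDC2 markers were lower. Of 8 genes of both kinds of dendritic cell, 7 did not pass the test and 1, the integrin gene Itgax, was lower (497 and 586 CPM in cDC1 against 956 and 972 in cDC2; not called without either cDC2 library).

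The cDC1 markers summed to 9943 and 12492 CPM in cDC1 and 2017 and 1819 CPM in cDC2, where Wdfy4 alone gave 1754 and 1578 CPM. The cDC2 markers summed to 57.9 and 44.5 CPM against 2898 and 2756 CPM. Markers of T cells summed to 85.1 to 94.1 CPM, of plasma cells to 15.1 to 43.8 CPM, of neutrophils to 1.30 to 28.7 CPM and of erythroid cells and platelets to 9.08 to 18.7 CPM over the 4 libraries, with groups that overlapped. Markers of NK cells summed to 39.98 and 26.4 CPM in cDC1 and 16.1 and 19.7 CPM in cDC2, and 2 of 9, Ncr1 and Gzma, were higher in cDC1. Markers of B cells summed to 40.3 and 27.0 CPM in cDC1 and 44.1 and 55.7 CPM in cDC2, and of 9 tested 1 was higher and 3 were lower. In cDC1 most of the sum came from Ms4a1, the gene that was higher. In cDC2 most of it came from the other B cell markers, which together were lower in cDC1. The plasmacytoid dendritic cell markers summed to 121 and 124 CPM in cDC1 and 169.9 and 156 CPM in cDC2, and of 9 tested 3 were higher and 3 lower. Markers of stroma and endothelium summed to 74.8 and 78.8 CPM in cDC1 and 119.9 and 129.7 CPM in cDC2, most of it from Pecam1, and of 8 tested 2 were higher and 2 lower. The 14 macrophage markers summed to 108 and 88.6 CPM in cDC1 and 437 and 399 CPM in cDC2, and 10 of 14 were lower in cDC1. The 10 monocyte markers summed to 5448 and 4031 CPM in cDC1 and 9143 and 8520 CPM in cDC2, most of it from Nr4a1, an immediate-early gene that dendritic cells also express. Of the 10 monocyte markers, 3 were higher and 6 lower in cDC1. The cDC1 replicates differed from each other in a way that followed gene length (Spearman's rank correlation of replicate 2 minus replicate 3 with exon length was -0.39 over 8407 genes that averaged 10 CPM or more), whereas in cDC2 it was 0.00026. The fold changes themselves had a rank correlation of -0.28 with length.

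The test called 2562 genes higher in cDC1 (13.7% of those tested) and 2847 lower (15.2%). The larger differences leaned to cDC2: 189 higher and 399 lower genes differed at least 16-fold, and 79 higher and 140 lower genes at least 64-fold. Genes at least 2-fold higher gave 17.2 and 16.4% of all counts in the cDC1 libraries and 4.14 and 4.33% in the cDC2 libraries. Genes at least 2-fold lower gave 6.84 and 6.96% in cDC1 and 21.5 and 21.3% in cDC2. Leaving out a library moved these totals to 929 higher and 1415 lower without cDC2 replicate 2, to 1229 and 1652 without cDC2 replicate 3, and to 4153 and 4691 without cDC1 replicate 3. Counts in the classes under an alternative are to be read against its own shares of all genes, higher and lower. Those shares were 12.7% and 17.6% without cDC1 replicate 2, 20.5% and 23.1% without cDC1 replicate 3, 4.43% and 6.74% without cDC2 replicate 2 and 5.89% and 7.91% without cDC2 replicate 3. They were 12.9% and 15.8% with RLE size factors, 14.8% and 18.2% by DESeq2, 7.25% and 9.13% with no filter, 21.9% and 22.4% with a filter at 1 CPM and 14.2% and 15.9% in a fit of all 8 libraries. With the length trend removed they were 10.7% and 16.5%, with the replicate number as a block 11.4% and 14.2%, and with both 9.88% and 15.8%.

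Of 39 functional classes with 1558 different genes tested, 33 had more members lower than higher in cDC1, and 6 had more higher than lower. The median log2 fold change over all genes tested was 0.03. In each class below, numbers in parentheses after a count are the same count with the named library left out, or under the named alternative, given where that moved it by over 1.5 times. The member of a class said to have the highest mean level per length had it over the 4 libraries together, and another member could be higher in 1 of the groups. A group left with 1 library was assumed to vary like the other. In bulk libraries fewer cells of a kind and less RNA per cell cannot be told apart. The classes were chosen with earlier results of these data known, and genes named with a fold but no value per library were mostly picked after their values were seen, from those that kept their call under every alternative unless said otherwise, so a class is described by its counts beside the 13.7% and 15.2% of all genes, and no test of a class was made.

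**Figure D1:**
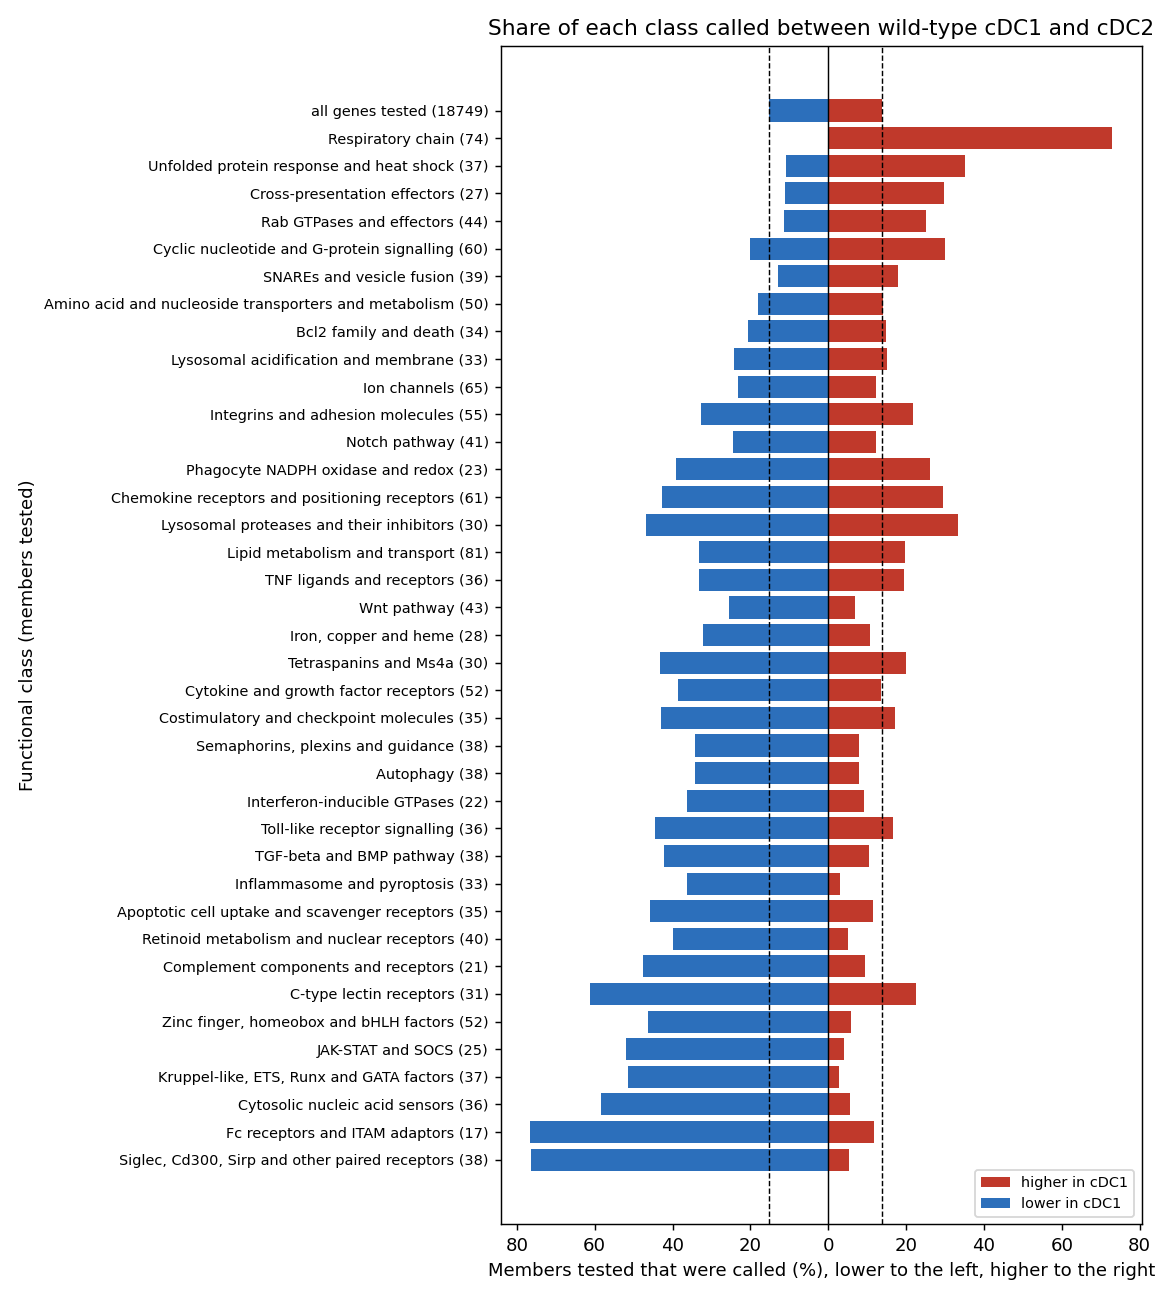
Share of the tested members of each of 38 functional classes that were called higher (red, to the right) or lower (blue, to the left) in wild-type cDC1 than in cDC2, in percent, with the number tested in parentheses. Dashed lines mark the shares over all genes tested, 13.7% higher and 15.2% lower. The respiratory chain and the unfolded protein response lie furthest to the right, and the paired receptors and Fc receptors furthest to the left.

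The surface receptors by which dendritic cells bind sugars, microbes and antibody were mostly lower in cDC1. C-type lectins bind glycans or dying cells and either activate or inhibit the cell. Of 31 tested, 7 were higher and 19 lower, with a median log2 fold change of -3.54. Clec7a, the Dectin-1 receptor for fungal beta-glucan, had the highest mean level of the class per length over the 4 libraries (16.6 CPM per kilobase in cDC1 and 304 in cDC2), although Clec9a was above it in cDC1, and was at 58.4 and 29.2 CPM in cDC1 against 856 and 749 in cDC2 (18.3-fold lower; log2 fold change -4.20, SE 0.35, edgeR adjusted p = 3.2e-04). The inhibitory receptor gene Clec4a4 was at 0.137 and 0 CPM in cDC1 against 66 and 75.1 in cDC2 and its neighbour Clec4a1 at 0.308 and 0.0684 CPM in cDC1 against 81.5 and 82.2 in cDC2, which were 1031-fold and 435-fold lower. Cd209a (41.4-fold) and Clec10a (19.3-fold), a receptor for galactose-type sugars, were lower too. The higher members were led by Clec4b2, at 33.3 and 20.4 CPM in cDC1 against 0.144 and 0.0703 in cDC2 (251-fold higher). Cd207, which encodes langerin, was at 83.3 and 67.8 CPM in cDC1 against 0.072 and 0.668 in cDC2 (204-fold higher; not called without cDC1 replicate 3). Clec12a, an inhibitory receptor for uric acid crystals, was 3.98-fold higher. Clec4a and Cd209 genes are close copies, and how reads shared between them were counted is not stated, so the split among them is uncertain.

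Fc receptors bind antibody, and the adaptors FcRgamma (Fcer1g) and DAP12 (Tyrobp) carry the ITAM motifs that signal for them and for several lectins. Of 17 tested, 2 were higher and 13 (7 without cDC2 replicate 2) lower, with a median of -2.31. Fcer1g was at 35.9 and 23.4 CPM in cDC1 against 315 and 330.1 in cDC2 (10.9-fold lower; log2 fold change -3.44, SE 0.23, edgeR adjusted p = 1.5e-04). Kinase genes of the class were lower as well, Syk 5.07-fold and the Src-family gene Fgr 9.45-fold. Trem1, an amplifier of inflammation, was at 0.0513 and 0.205 CPM in cDC1 against 17.1 and 24.6 in cDC2 (162-fold lower). Tyrobp, the most abundant of the class per length, differed less: it was at 223 and 183 CPM in cDC1 against 417 and 376 in cDC2 (1.95-fold lower; not called without cDC2 replicate 2). The 2 members that went the other way were Treml4 and Fcgrt. Treml4, a receptor for dead cells, was at 291 and 262 CPM in cDC1 against 45.9 and 45.7 in cDC2 (6.03-fold higher; log2 fold change 2.59, SE 0.14, edgeR adjusted p = 7.7e-05). Fcgrt, the neonatal Fc receptor that recycles IgG, was at 205 and 185 CPM in cDC1 against 78.5 and 80.6 in cDC2 (2.45-fold higher).

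Paired receptors, families with inhibitory and activating members that bind sialic acid, lipids or self proteins, were mostly lower as well. Of 38 tested, 2 (1 with the length trend removed or with the block and the length trend removed or without cDC1 replicate 2, 0 without cDC2 replicate 2 or cDC2 replicate 3) were higher and 29 lower, with a median of -3.11. Sirpb1a was at 0.0342 and 0.137 CPM in cDC1 against 185 and 177 in cDC2 (2118-fold lower), the sialic acid receptor gene Cd33 was 33.1-fold lower, and the inhibitory receptor genes Cd22 and Pirb were 7.61-fold and 2.16-fold lower. Sirpb1 and Cd300 genes share long stretches of sequence, and reads could be split among them. The 2 members called higher were Klrk1, which encodes NKG2D, at 185 and 136 CPM in cDC1 against 99.7 and 94.9 in cDC2, and Cd300c, at 7.94 and 5.78 CPM in cDC1 against 2.83 and 3.57 in cDC2. Klrk1 is also a gene of NK cells, whose markers summed higher in the cDC1 libraries, and Cd300c is also among the plasmacytoid dendritic cell markers, and the part of these cells was not tested. Neither was called without either cDC2 library, and Cd300c also lost its call without cDC1 replicate 2 and with the trend on gene length removed.

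**Figure D2:**
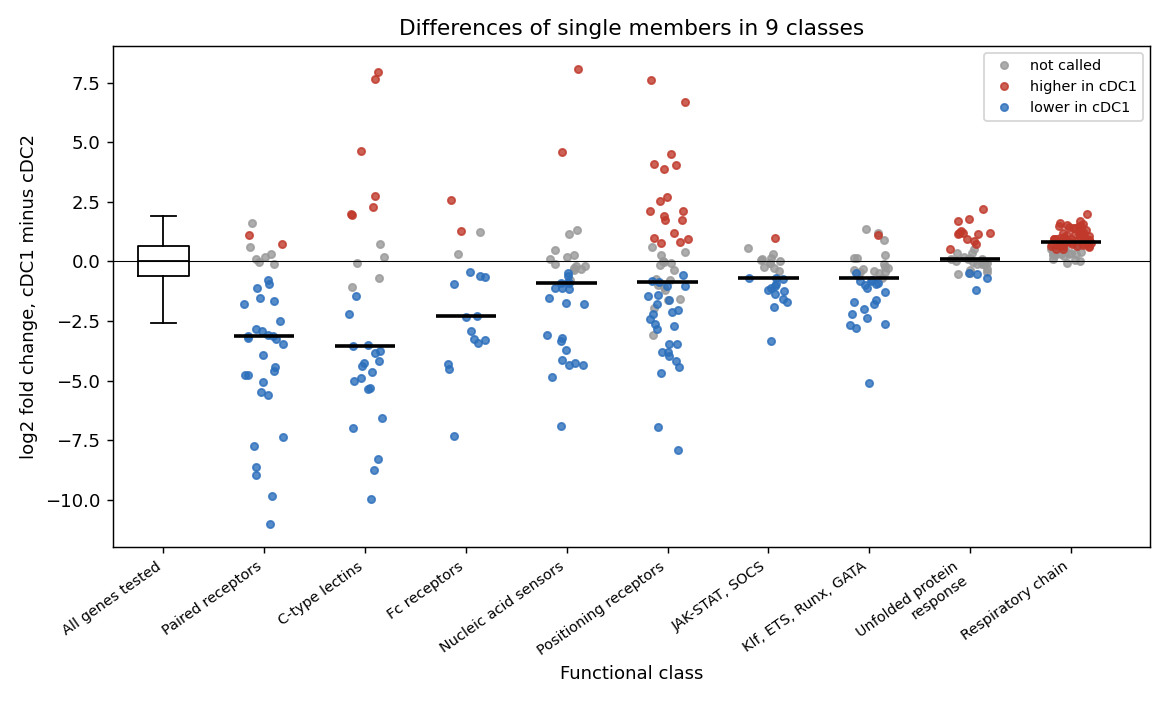
log2 fold change (cDC1 minus cDC2) of each tested member of 9 classes, with black bars for class medians. The box for all genes tested spans the quartiles with whiskers at the 5th and 95th percentile. Most paired receptors, C-type lectins and Fc receptors lie below 0 with medians of -3.11, -3.54 and -2.31, and nearly all respiratory chain members lie above 0 with a median of 0.81.

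The class of apoptotic cell uptake genes and scavenger receptors had more members lower than higher in cDC1. Clec9a and Treml4, receptors for dead cells that were higher in cDC1, were counted in other classes. The direction of the class thus depends on which genes were listed in it. Of 35 genes tested, 4 (7 without cDC1 replicate 3, 2 without cDC2 replicate 2) were higher and 16 lower. Cd36, a scavenger receptor for oxidised lipid and apoptotic cells, was at 634 and 500.0 CPM in cDC1 against 12.7 and 21.6 in cDC2 (33-fold higher; log2 fold change 5.05, SE 0.31, edgeR adjusted p = 1.1e-04; not called without cDC1 replicate 3). Anxa1, which encodes a phosphatidylserine-binding annexin, was at 359 and 264 CPM in cDC1 against 68.3 and 80.4 in cDC2 (4.19-fold higher). The receptors lower in cDC1 included the integrin subunit gene Itgb3, at 1.5 and 1.91 CPM in cDC1 against 110.3 and 91.3 in cDC2 (58.9-fold lower), Lrp1, a large endocytic receptor, at 3.87 and 3.26 CPM in cDC1 against 165 and 134 in cDC2 (42-fold lower), and the TAM receptor kinases Axl (17.9-fold) and Mertk (5.29-fold). Havcr2, which encodes TIM-3 and had the highest mean level per length, was at 796 and 626 CPM in cDC1 against 526 and 544 in cDC2 and did not pass the test (log2 fold change 0.41, adjusted p = 0.11).

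Complement genes also had more members lower than higher: of 21 tested, 2 (1 with RLE size factors or with the replicate block or without cDC1 replicate 2 or cDC2 replicate 2 or cDC2 replicate 3) were higher and 10 lower. C3, the central complement protein, was at 1.3 and 0.632 CPM in cDC1 against 26.7 and 23.9 in cDC2 (26.2-fold lower). Itgam, a chain of complement receptor 3, was at 1.21 and 0.598 CPM in cDC1 against 38.8 and 41.9 in cDC2 (44.5-fold lower). The C1q chains C1qa, C1qb and C1qc were 17.2-fold, 12.4-fold and 9.8-fold lower, and Cfp, which encodes properdin, 3.44-fold. Calr, which encodes calreticulin, an endoplasmic reticulum chaperone and partner of C1q, was at 1103 and 1055 CPM in cDC1 against 449 and 394 in cDC2 (2.56-fold higher; log2 fold change 1.36, SE 0.15, edgeR adjusted p = 9.6e-04). C1qa, C1qb, C1qc, Mertk and the monocyte and macrophage gene Adgre1, at 3.8 and 3.25 CPM in cDC1 against 225 and 202 in cDC2, are also markers of macrophages, whose summed level was higher in the cDC2 libraries, and their part in these results was not tested.

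In the lysosome, proteases and their inhibitors were found on both sides of the difference. Of 30 proteases, hydrolases and inhibitors tested, 10 (5 without cDC2 replicate 2) were higher and 14 (9 without cDC2 replicate 2) lower. Cst3, which encodes cystatin C, a secreted inhibitor of cysteine cathepsins, was at 12880.1 and 9922 CPM in cDC1 against 514 and 507 in cDC2 (22.3-fold higher; log2 fold change 4.48, SE 0.20, edgeR adjusted p = 3.6e-05) and had the highest mean level of the class per length, 9006 CPM per kilobase in cDC1 and 403 in cDC2. Psap, the precursor of the saposins that lift lipids from membranes, was 3.08-fold higher and Npc2, a cholesterol carrier, 2.42-fold higher. The aspartic protease gene Ctse was at 13 and 11.3 CPM in cDC1 against 1.6 and 1.85 in cDC2 (7.06-fold higher). Lower members included the cysteine protease genes Ctsc (3.7-fold) and Ctsl (4.0-fold) and the asparaginyl endopeptidase gene Lgmn (4.75-fold). Gla, which encodes alpha-galactosidase, was at 15.7 and 21.2 CPM in cDC1 against 158 and 131 in cDC2 (7.84-fold lower). Cst7, another cystatin, was at 2.15 and 0.974 CPM in cDC1 against 9.8 and 10.8 in cDC2 and, unlike Cst3, 6.57-fold lower.

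Of 33 genes for the lysosomal proton pump and membrane, 5 (10 without cDC1 replicate 3, 3 without cDC2 replicate 2 or cDC2 replicate 3) were higher and 8 (2 without cDC2 replicate 2, 3 without cDC2 replicate 3) lower. Slc11a1, the phagosomal metal transporter NRAMP1, was at 184 and 201 CPM in cDC1 against 29.9 and 27.3 in cDC2 (6.73-fold higher; log2 fold change 2.75, SE 0.15, edgeR adjusted p = 6.8e-05). The lysosomal membrane protein gene Laptm4b was at 165 and 91.1 CPM in cDC1 against 8.21 and 6.94 in cDC2 (16.9-fold higher). Tfeb, the transcription factor that drives lysosomal genes, was at 58.5 and 62.6 CPM in cDC1 against 212 and 199 in cDC2 (3.39-fold lower). The proton pump subunit gene Atp6v0c was at 131 and 106 CPM in cDC1 against 314 and 279 in cDC2 (2.5-fold lower). Laptm5, the member with the highest mean level per length, was at 2008 and 2100.0 CPM in cDC1 against 2959 and 2729.5 in cDC2 and did not pass the test (adjusted p = 0.0506).

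The phagocyte NADPH oxidase makes superoxide in the phagosome, and its catalytic subunit gene Cybb stood out: it was at 6.74 and 3.62 CPM in cDC1 against 610.3 and 624 in cDC2 (119-fold lower in cDC1; log2 fold change -6.90, SE 0.34, edgeR adjusted p = 4.8e-05). The proton channel gene Hvcn1, which keeps the oxidase running, was at 1.68 and 3.09 CPM in cDC1 against 39.9 and 38.1 in cDC2 (16.4-fold lower). The thioredoxin and glutathione genes of the same class were split. Txn1, which encodes thioredoxin, was at 246 and 194 CPM in cDC1 against 37.2 and 44.1 in cDC2 (5.42-fold higher). Gclc, the rate-limiting enzyme of glutathione synthesis, was at 179 and 175 CPM in cDC1 against 54.3 and 48.4 in cDC2 (3.44-fold higher), whereas the reductase genes Txnrd1 (2.44-fold) and Gsr (3.88-fold) were lower. In all 6 (2 without cDC2 replicate 2) were higher and 9 lower of 23. Gpx1 was the most abundant per length, at 1114 and 948 CPM in cDC1 against 1036 and 895 in cDC2, and did not differ past the test (adjusted p = 0.71).

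Vesicle traffic genes differed less in number, with large differences at single members. Of 44 Rab GTPases and effectors, 11 (7 with the block and the length trend removed, 6 without cDC2 replicate 2, 5 without cDC2 replicate 3) were higher and 5 (8 by DESeq2 or with the length trend removed or with the block and the length trend removed or without cDC1 replicate 2, 12 without cDC1 replicate 3, 2 without cDC2 replicate 2, 3 without cDC2 replicate 3) lower. Rab7b, which governs transport from late endosomes, was at 949 and 676 CPM in cDC1 against 6.74 and 5.48 in cDC2 (133-fold higher; log2 fold change 7.06, SE 0.27, edgeR adjusted p = 2.3e-05), while its close relative Rab7, the most abundant per length, was at 359 and 299.9 CPM in cDC1 against 295 and 295 in cDC2 (log2 fold change 0.16, adjusted p = 0.479). Rab39, linked to phagosome maturation, was at 13.7 and 19.7 CPM in cDC1 against 1.55 and 1.51 in cDC2 (10.9-fold higher), and Rab32, a GTPase of lysosome-related organelles, and Rab11a, of recycling endosomes, were 6.87-fold and 2.4-fold higher. Rab37 and Rab20 were at 2.17 and 4.8 CPM in cDC1 against 24.6 and 26 in cDC2 and at 4.45 and 2.36 CPM in cDC1 against 22.1 and 17.4 in cDC2, respectively (7.25-fold and 5.81-fold lower). Of 39 SNAREs and their partners, which fuse vesicles with target membranes, 7 (12 without cDC1 replicate 3, 1 without cDC2 replicate 2 or cDC2 replicate 3) were higher and 5 (9 by DESeq2, 8 in a fit of all 8 libraries, 10 without cDC1 replicate 2, 11 without cDC1 replicate 3, 1 without cDC2 replicate 2 or cDC2 replicate 3) lower, all with modest differences. Stx3 was at 37 and 31.6 CPM in cDC1 against 15 and 15.6 in cDC2 (2.25-fold higher). Stxbp3 was at 85.5 and 65.6 CPM in cDC1 against 157 and 182 in cDC2 (2.24-fold lower).

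Genes with a reported part in cross-presentation were not uniformly higher in cDC1. Of 27 tested, 8 (14 without cDC1 replicate 3, 5 without cDC2 replicate 2) were higher, 3 (5 by DESeq2 or with the length trend removed, 7 with no filter or without cDC1 replicate 3) lower and 16 were not called. Clec9a, the receptor for exposed actin of dead cells, was at 304 and 227 CPM in cDC1 against 10.7 and 10.5 in cDC2 (25.1-fold higher; log2 fold change 4.65, SE 0.20, edgeR adjusted p = 3.2e-05). Ly75, the endocytic receptor DEC-205, was at 187 and 292 CPM in cDC1 against 31 and 40.9 in cDC2 (6.66-fold higher). Apol7c, an apolipoprotein L gene, was 5.02-fold higher, and Sec61g, a subunit of the translocon proposed as an exit for antigen, 4.42-fold. Rac2, which steers assembly of the oxidase, was at 200.3 and 162 CPM in cDC1 against 353 and 375 in cDC2 (2.01-fold lower), beside Cybb above. Cd74, the invariant chain that guides MHC class II, had the highest mean level of the class per length (20295 CPM per kilobase in cDC1 and 17965 in cDC2) and was at 38159 and 29990.2 CPM in cDC1 against 32013 and 28312 in cDC2, with no call (log2 fold change 0.18, adjusted p = 0.53).

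Most of the cytosolic sensors of DNA and RNA that differed were lower in cDC1, with 2 large exceptions. Of 36 tested, 2 (4 without cDC1 replicate 2 or cDC1 replicate 3) were higher and 21 (12 without cDC2 replicate 2, 13 without cDC2 replicate 3) lower, with a median of -0.89. The RNA sensors RIG-I and MDA5, encoded by Ddx58 and Ifih1, were 19-fold and 2.91-fold lower. Genes of the oligoadenylate synthetase family, whose products activate the ribonuclease RNase L on double-stranded RNA, were among them: Oas1a was at 2.15 and 2.17 CPM in cDC1 against 44.7 and 44.5 in cDC2 (20.6-fold; log2 fold change -4.37, SE 0.18, edgeR adjusted p = 2.7e-05), Oas3 at 1.52 and 4.17 CPM in cDC1 against 37.2 and 37.3 in cDC2 (13.1-fold) and Oasl2 was 20.5-fold lower. Ddx60, a helicase linked to RNA sensing, was at 0.684 and 0.974 CPM in cDC1 against 23.8 and 24.2 in cDC2 (29-fold lower). The exceptions were the PYHIN genes Ifi205 and Ifi211. Ifi205 was at 639 and 524 CPM in cDC1 against 2.38 and 1.92 in cDC2 (271-fold higher; log2 fold change 8.08, SE 0.23, edgeR adjusted p = 1.3e-05). Ifi211 was at 72.8 and 61.5 CPM in cDC1 against 2.61 and 2.9 in cDC2 (24.4-fold higher; log2 fold change 4.61, SE 0.19, edgeR adjusted p = 2.8e-05). Another member of that family, Ifi213, lay in the opposite direction at 1.32 and 2.63 CPM in cDC1 against 18.1 and 19.1 in cDC2 (9.42-fold lower). The families of Oas1 and PYHIN genes hold close copies, so the split of reads among their members is uncertain.

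Promoters of these sensor genes were read because the genes are known targets of interferon signalling and moved in both directions. The motif searched was the core of the interferon-stimulated response element (ISRE), which binds complexes of STAT and IRF proteins. Its letters are GAAA, any 2 bases, and GAAA again. Both strands of the 250 bases before the start of each gene in RefSeq (GRCm38.p6) were searched. It lay in 13 of the 34 promoters of sensor genes found in that table (38.2%) and in 2.91% of the 14368 promoters of all tested genes. It lay in 5.59% of promoters of genes called at least 4-fold lower and in 3.49% of those at least 4-fold higher. All 13 were among the 20 promoters of the called members, and belonged to 10 genes lower and 2 higher. All of these genes but Ddx60 are of the PYHIN or Oas families, which hold close copies, so they are not independent of one another. A link of the motif with the calls was not tested. The 150 bases before the start are shown 5' to 3' on the strand of the gene with the motif in capitals, for 4 genes lower in cDC1 (Oas1a, chr5:120907526-120907675, minus strand; Oas3, chr5:120777660-120777809, minus strand; Ddx60, chr8:61927937-61928086, plus strand; Ifi213, chr1:173599273-173599422, minus strand) and for the 2 that were higher (Ifi205, chr1:174031756-174031905, minus strand; Ifi211, chr1:173913047-173913196, minus strand).
Oas1a: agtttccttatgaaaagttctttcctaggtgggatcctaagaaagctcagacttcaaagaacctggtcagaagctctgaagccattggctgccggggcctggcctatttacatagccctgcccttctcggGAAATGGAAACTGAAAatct
Oas3: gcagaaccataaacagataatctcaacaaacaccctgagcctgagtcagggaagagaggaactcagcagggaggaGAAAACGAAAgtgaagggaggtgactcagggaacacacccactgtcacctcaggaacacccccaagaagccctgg
Ddx60: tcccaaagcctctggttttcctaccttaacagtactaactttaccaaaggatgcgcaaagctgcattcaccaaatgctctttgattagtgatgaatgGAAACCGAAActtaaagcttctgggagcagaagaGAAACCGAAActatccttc
Ifi213: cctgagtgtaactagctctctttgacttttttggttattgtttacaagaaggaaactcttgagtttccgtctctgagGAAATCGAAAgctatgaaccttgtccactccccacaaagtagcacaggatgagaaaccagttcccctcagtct
Ifi205: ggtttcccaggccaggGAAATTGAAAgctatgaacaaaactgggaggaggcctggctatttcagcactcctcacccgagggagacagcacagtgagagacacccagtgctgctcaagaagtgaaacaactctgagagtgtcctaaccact
Ifi211: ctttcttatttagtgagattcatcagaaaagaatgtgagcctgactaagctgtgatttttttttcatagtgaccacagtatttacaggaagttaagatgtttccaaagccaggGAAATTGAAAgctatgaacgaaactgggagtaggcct
The motif was thus present on both sides of the difference: in Ifi205 and Ifi211 it was the same 10 letters, GAAATTGAAA, and in Ifi213 it was GAAATCGAAA. In Oas1a the capitals run over 2 overlapping matches, and Ddx60 holds 2 separate ones. A match describes these letters only, and binding was not measured.

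Interferon-inducible GTPases, some of which attack the vacuoles of intracellular microbes, had 2 higher and 8 (5 without cDC2 replicate 3) lower of 22. The transcript of the dynamin-like gene Mx1 was at 72.6 and 58.2 CPM in cDC1 against 17.3 and 15 in cDC2 (4.05-fold higher, log2 fold change 2.02, SE 0.18, edgeR adjusted p = 4.4e-04). The guanylate-binding protein genes Gbp7 and Gbp3 were at 3.23 and 1.88 CPM in cDC1 against 10.8 and 15.8 in cDC2 and at 3.73 and 5.15 CPM in cDC1 against 13.5 and 17.5 in cDC2, respectively (5.21-fold and 3.5-fold lower); they too belong to a family of close copies.

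Of 33 inflammasome and pyroptosis genes, 1 (2 in a fit of all 8 libraries or without cDC1 replicate 2, 5 without cDC1 replicate 3, 0 without cDC2 replicate 2) was higher and 12 were lower. Nlrc4, the adaptor for bacterial flagellin and secretion systems, was at 1.69 and 3.03 CPM in cDC1 against 30.1 and 24.8 in cDC2 (11.6-fold lower; log2 fold change -3.54, SE 0.31, edgeR adjusted p = 4.3e-04). Nlrp3 (4.31-fold), the peptidoglycan sensor gene Nod1 (4.82-fold) and Casp1 (2.24-fold), which encodes the protease that matures IL-1beta, were lower. Nlrp1b was the only member called higher, at 15 and 22.1 CPM in cDC1 against 8.34 and 10.1 in cDC2 (2.02-fold; not called without cDC2 replicate 2). Il1b itself had the highest mean level per length, at 1971 and 1019 CPM in cDC1 against 2447 and 2169 in cDC2, and did not pass the test (adjusted p = 0.167).

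Among the adaptors, kinases and regulators downstream of Toll-like receptors, 6 (11 without cDC1 replicate 3, 2 without cDC2 replicate 2) of 36 were higher and 16 (7 without cDC2 replicate 2, 10 without cDC2 replicate 3) lower. Ticam2, which encodes the TRAM adaptor of TLR4, was at 1.64 and 2.12 CPM in cDC1 against 33.3 and 39.3 in cDC2 (19.3-fold lower; log2 fold change -4.27, SE 0.23, edgeR adjusted p = 6.5e-05). Irak3, a brake on the pathway, was at 0.77 and 0.547 CPM in cDC1 against 6.93 and 7.56 in cDC2 (11-fold lower). Tnfaip3, which encodes the inhibitor A20, was 4.11-fold lower. Tirap, the adaptor that brings MyD88 to the membrane, was at 8.64 and 10.6 CPM in cDC1 against 2.9 and 3.5 in cDC2 (3.01-fold higher; not called without cDC2 replicate 2), Sarm1, an adaptor with NADase activity, was at 6.34 and 7.01 CPM in cDC1 against 1.06 and 0.492 in cDC2 (8.59-fold higher), and Hsp90b1, the chaperone of Toll-like receptors, was 2.99-fold higher. Unc93b1, which carries the endosomal receptors to their compartment, was the most abundant per length and lay at 1415 and 1467 CPM in cDC1 against 1350.4 and 1177 in cDC2 (log2 fold change 0.19, adjusted p = 0.387).

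Molecules that cDC use to speak to T cells were split by gene. Of 35 costimulatory and checkpoint genes tested, 6 were higher and 15 lower. Btla, the inhibitory partner of HVEM, was at 572 and 555 CPM in cDC1 against 71.6 and 75.6 in cDC2 (7.65-fold higher; log2 fold change 2.94, SE 0.14, edgeR adjusted p = 4.7e-05). Slamf8 was at 293 and 306 CPM in cDC1 against 102 and 95.6 in cDC2 (3.03-fold higher). The B7 genes went apart: Cd86 was 2.89-fold higher, whereas Cd80 (2.82-fold), Icosl (2.47-fold), Cd274 (4.98-fold), which encodes PD-L1, and Pdcd1lg2 (14.7-fold), which encodes PD-L2, were lower. Cd101 was at 0.872 and 0.65 CPM in cDC1 against 29 and 25.6 in cDC2 (35.9-fold lower). Cd83, the most abundant per length, was at 3866 and 2756 CPM in cDC1 against 4454 and 3936 in cDC2 and was not called (adjusted p = 0.254).

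Of 36 TNF ligands and receptors, 7 (0 without cDC2 replicate 2, 1 without cDC2 replicate 3) were higher and 12 lower. Ltb, the lymphotoxin subunit that signals to stromal cells of lymphoid tissue, was at 27.6 and 20.6 CPM in cDC1 against 241 and 209.7 in cDC2 (9.34-fold lower; log2 fold change -3.22, SE 0.20, edgeR adjusted p = 1.1e-04), Tnfsf14, which encodes LIGHT, at 1.09 and 1.68 CPM in cDC1 against 26.1 and 25.3 in cDC2 (18.5-fold lower), and the TNF receptor gene Tnfrsf1b was 5.49-fold lower. Tnfrsf4, which encodes OX40, was at 25.4 and 15.5 CPM in cDC1 against 6.83 and 8.79 in cDC2 (2.61-fold higher; not called without cDC2 replicate 2).

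Cytokine and growth factor receptors had 7 higher and 20 (11 without cDC2 replicate 2) lower of 52. Met, the receptor for hepatocyte growth factor, was at 81.7 and 115 CPM in cDC1 against 5.31 and 3.97 in cDC2 (21.2-fold higher; log2 fold change 4.41, SE 0.26, edgeR adjusted p = 9.1e-05). Igf2r, which carries lysosomal enzymes and IGF2, was 13.4-fold higher, with the cDC1 libraries at 27.1 and 61.0 CPM and the cDC2 libraries at 2.29 and 4.27 CPM. Csf1r, the receptor of macrophage colony-stimulating factor, was at 15.7 and 13.8 CPM in cDC1 against 617 and 606 in cDC2 (41.4-fold lower; log2 fold change -5.37, SE 0.17, edgeR adjusted p = 1.4e-05). Csf3r, that of granulocyte colony-stimulating factor, was at 0.581 and 0.171 CPM in cDC1 against 36.6 and 28.9 in cDC2 (87.2-fold lower). The decoy receptor gene Il1r2 (22.6-fold), Lifr (39.5-fold), Il2rg (7.13-fold), the common gamma chain, Il4ra (3.22-fold) and Il6st (2.81-fold), which encodes gp130, were lower. Il15ra, which presents IL-15 to other cells, was 2.75-fold higher. Ifngr1, the most abundant per length, was at 1386 and 1125 CPM in cDC1 against 1042 and 1049.8 in cDC2 and was not called (adjusted p = 0.265).

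Of 25 JAK-STAT genes behind those receptors, 1 (2 with no filter or in a fit of all 8 libraries or with the block and the length trend removed or without cDC1 replicate 2, 3 with the length trend removed, 0 without cDC2 replicate 2 or cDC2 replicate 3) was higher and 13 (7 without cDC2 replicate 2) were lower, with a median of -0.69. Stat4, the mediator of IL-12 signals, was at 4.65 and 3.26 CPM in cDC1 against 39.3 and 40.6 in cDC2 (10.1-fold lower; log2 fold change -3.34, SE 0.22, edgeR adjusted p = 1.5e-04) and Ptpn6, the phosphatase SHP-1, which was the most abundant per length, at 221 and 236 CPM in cDC1 against 904 and 839 in cDC2 (3.82-fold lower). Jak2 (2.17-fold), Stat5b (2.37-fold) and the feedback inhibitor gene Socs3 (2.58-fold) were lower. Socs5 was the member called higher, at 22.1 and 26.5 CPM in cDC1 against 13.3 and 11.3 in cDC2; it was not called without either cDC2 library.

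**Figure D3:**
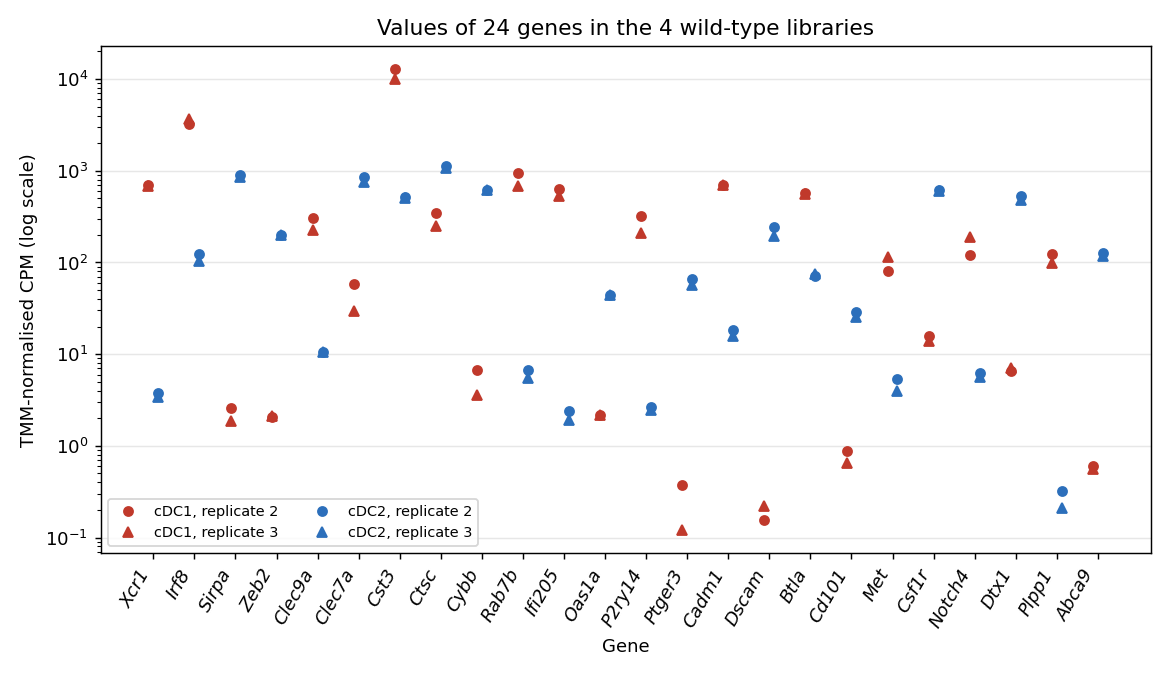
Level of 24 genes in each wild-type library, as TMM-normalised CPM on a log scale, cDC1 in red and cDC2 in blue, replicate 2 as circles and replicate 3 as triangles. For each gene both libraries of a group lie on 1 side of both libraries of the other, as for Xcr1 with 693 and 687 CPM in cDC1 and 3.73 and 3.38 CPM in cDC2.

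Receptors for chemokines, lipids and nucleotides, which place cells in the spleen, were called in both directions at shares above those of all genes (29.5% higher and 42.6% lower, against 13.7% and 15.2%). Of 61 tested, 18 were higher and 26 lower. After Xcr1, the largest higher member was P2ry14, a receptor for UDP-glucose, at 325 and 209.8 CPM in cDC1 against 2.68 and 2.48 in cDC2 (104-fold higher; log2 fold change 6.69, SE 0.28, edgeR adjusted p = 3.0e-05). Cxcr3 (22.8-fold), the gut-homing receptor gene Ccr9 (5.71-fold) and the orphan receptor gene Gpr171 (16.3-fold) were higher. On the other side, Ptger3, a prostaglandin E2 receptor, was at 0.376 and 0.12 CPM in cDC1 against 65.4 and 56.7 in cDC2 (246-fold lower; log2 fold change -7.93, SE 0.39, edgeR adjusted p = 4.8e-05). Ccr6, the CCL20 receptor, was at 0.513 and 0.632 CPM in cDC1 against 15.9 and 13.8 in cDC2 (26-fold lower). Gpr183, the oxysterol receptor known to hold cDC2 at the bridging channels of the spleen, was 4.65-fold lower, and Cx3cr1 18-fold. Ccr7, the receptor for migration to T-cell zones, had the highest mean level per length over the 4 libraries (327 CPM per kilobase in cDC1 and 881 in cDC2), although Gpr171 was above it in cDC1, and was at 735 and 561 CPM in cDC1 against 1808 and 1677 in cDC2 (2.69-fold lower; log2 fold change -1.43, SE 0.18, edgeR adjusted p = 0.0018).

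Integrins and other adhesion molecules had 12 higher and 18 lower of 55. Itgae, which encodes CD103, was at 103 and 112 CPM in cDC1 against 1.46 and 2.37 in cDC2 (56.2-fold higher). Cadm1, an adhesion molecule that binds CRTAM on T cells, was at 706 and 691 CPM in cDC1 against 18.4 and 15.7 in cDC2 (40.9-fold higher; log2 fold change 5.35, SE 0.18, edgeR adjusted p = 1.5e-05). The integrin alpha chain gene Itga8 was 30.3-fold higher. Dscam, an immunoglobulin-family adhesion molecule best known from neurons, was at 0.154 and 0.222 CPM in cDC1 against 244 and 192 in cDC2 (1160.4-fold lower; log2 fold change -10.16, SE 0.28, edgeR adjusted p = 1.3e-05), and L1cam (24.8-fold) and Esam (6.38-fold), a marker of Notch-dependent cDC2, were lower. The leukocyte integrin gene Itgb2, the most abundant per length, was at 765 and 722 CPM in cDC1 against 936 and 875 in cDC2 and was not called (adjusted p = 0.175).

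Guidance genes, named for their part in steering axons, had 3 (5 without cDC1 replicate 2) higher and 13 lower of 38. The ligand gene Sema4f was at 89.5 and 96.8 CPM in cDC1 against 5.1 and 5.63 in cDC2 (17.4-fold higher; log2 fold change 4.12, SE 0.17, edgeR adjusted p = 2.6e-05). Sema4a was at 283 and 351 CPM in cDC1 against 57.6 and 62 in cDC2 (5.3-fold higher). Other ligands were lower, with Sema7a at 1.86 and 3.5 CPM in cDC1 against 42.4 and 46.9 in cDC2 (16.6-fold lower) and Sema4d 4.82-fold lower. The plexins, which are semaphorin receptors, included Plxnc1, the most abundant per length, at 171 and 256 CPM in cDC1 against 1139.8 and 1063 in cDC2 (5.15-fold lower), and Plxnd1 (14.8-fold lower). Efnb2, an ephrin, was at 2.02 and 0.427 CPM in cDC1 against 29.9 and 26.2 in cDC2 (22.9-fold lower; not called without cDC2 replicate 3).

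Pathways known from development were each represented by a few members with very large differences. In the Wnt pathway 3 (5 without cDC1 replicate 3) genes were higher and 11 (17 with no filter, 24 without cDC1 replicate 3, 7 without cDC2 replicate 3) lower of 43. Dkk3, of the secreted Dickkopf proteins, was at 85.0 and 76.6 CPM in cDC1 and had no count in either cDC2 library. Set against 3 counts for the whole cDC2 group, this was at least 3028-fold higher. The receptor gene Fzd1 was at 92.8 and 138 CPM in cDC1 against 0.18 and 0.65 in cDC2 (278-fold higher; log2 fold change 8.10, SE 0.50, edgeR adjusted p = 1.1e-04). The ligand gene Wnt11 was at 5.34 and 3.01 CPM in cDC1 against 55 and 54.3 in cDC2 (13.1-fold lower), the coactivator gene Bcl9l at 2.02 and 3.21 CPM in cDC1 against 26.9 and 28.1 in cDC2 (10.5-fold lower), and Tcf7, which encodes the transcription factor TCF-1, was 4.45-fold lower.

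In the TGF-beta and BMP pathway 4 (2 without cDC2 replicate 2 or cDC2 replicate 3) were higher and 16 (10 without cDC2 replicate 2) lower of 38. The ligand gene Bmp2 was at 0.274 and 0.12 CPM in cDC1 against 48.9 and 54.6 in cDC2 (263-fold lower; log2 fold change -8.02, SE 0.32, edgeR adjusted p = 2.6e-05), and the inhibitor gene Smad7 was 3.34-fold lower. The type I receptor gene Acvrl1 was at 155 and 140.0 CPM in cDC1 against 27.3 and 23 in cDC2 (5.86-fold higher; log2 fold change 2.55, SE 0.16, edgeR adjusted p = 1.3e-04). Of the Id genes, which are targets of this pathway and block E proteins, Id2, needed for cDC1 development and the most abundant of the class per length, was at 839.9 and 552 CPM in cDC1 against 173 and 193 in cDC2 (3.8-fold higher), whereas Id3 was 4.13-fold lower.

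In the Notch pathway 5 (9 without cDC1 replicate 3, 1 without cDC2 replicate 2, 2 without cDC2 replicate 3) were higher and 10 (20 without cDC1 replicate 3, 6 without cDC2 replicate 2 or cDC2 replicate 3) lower of 41. The receptor gene Notch4 was at 119 and 187 CPM in cDC1 against 6.19 and 5.63 in cDC2 (25.9-fold higher; log2 fold change 4.70, SE 0.27, edgeR adjusted p = 8.0e-05). Notch3, picked after its values were seen, went the other way at low levels. It was at 0.257 and 0.359 CPM in cDC1 against 3.03 and 3.32 in cDC2 (10.3-fold lower). Dtx1, a Notch target and regulator that had the highest mean level per length, was at 6.55 and 7.11 CPM in cDC1 against 529 and 478 in cDC2 (73.7-fold lower; log2 fold change -6.20, SE 0.18, edgeR adjusted p = 1.3e-05). The ligand gene Jag1 was 3.56-fold lower and the coactivator gene Maml3 was at 1.86 and 5.11 CPM in cDC1 against 24.8 and 23.7 in cDC2 (6.95-fold lower).

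Nuclear receptors and retinoid enzymes had 2 higher and 16 (26 without cDC1 replicate 3, 8 without cDC2 replicate 2, 9 without cDC2 replicate 3) lower of 40. Rora was at 1.98 and 1.5 CPM in cDC1 against 26.7 and 23.7 in cDC2 (14.4-fold lower; log2 fold change -3.85, SE 0.23, edgeR adjusted p = 1.0e-04), the oxysterol receptor gene Nr1h3, which encodes LXRalpha, at 0.222 and 1.01 CPM in cDC1 against 7.15 and 8.37 in cDC2 (12.6-fold lower), and the retinoic acid receptor gene Rarg was 8.88-fold lower. Rxra, which encodes a partner of the LXR and retinoic acid receptors, was at 45.4 and 48.5 CPM in cDC1 against 14.3 and 16.4 in cDC2 (3.06-fold higher, log2 fold change 1.61, SE 0.16, edgeR adjusted p = 6.5e-04). Dhrs9, a retinol dehydrogenase, was at 8.02 and 8.0 CPM in cDC1 against 2.77 and 2.57 in cDC2 (3.0-fold higher). Nr4a1, the most abundant per length, was at 3921 and 3021 CPM in cDC1 against 7430.4 and 6849 in cDC2 (2.06-fold lower; not called without cDC2 replicate 2).

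Transcription factors of 2 further classes were almost all lower where they differed. Of 37 Kruppel-like, ETS, Runx and GATA factors 1 (2 with a filter at 1 CPM or without cDC1 replicate 2, 3 without cDC1 replicate 3, 0 without cDC2 replicate 2) was higher and 19 (12 without cDC2 replicate 2) lower, with a median of -0.70. Spib, an ETS factor of B cells and plasmacytoid dendritic cells, was at 1.37 and 2.55 CPM in cDC1 against 68.3 and 66.8 in cDC2 (34.5-fold lower; log2 fold change -5.11, SE 0.31, edgeR adjusted p = 1.0e-04). The summed markers of both those cell types were higher in the cDC2 libraries, and their part in this value was not tested. Elk3 was at 12.1 and 9.08 CPM in cDC1 against 70.2 and 74.7 in cDC2 (6.85-fold lower). Klf4 (4.69-fold), known to be required by a part of cDC2, Klf10 (6.1-fold) and Runx3 (2.41-fold) were lower. Klf3 was the only member higher, at 253 and 214 CPM in cDC1 against 102 and 115 in cDC2 (2.16-fold; not called without cDC2 replicate 2). Klf2, the most abundant per length, was at 693 and 705 CPM in cDC1 against 827 and 911 in cDC2 and was not called (adjusted p = 0.141).

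Of 52 zinc finger, homeobox and helix-loop-helix factors, 3 were higher and 24 lower, with a median of -0.95. The higher members included the homeobox gene Hhex and the Myc relative Mycl (2.96-fold). Hhex was at 269.7 and 172 CPM in cDC1 against 46.1 and 55 in cDC2 (4.37-fold; log2 fold change 2.13, SE 0.24, edgeR adjusted p = 0.00116). Zfp521 had no count in either cDC1 library and 12.9 and 9.69 CPM in cDC2 (at least 441-fold lower, with the same floor for cDC1). Zbtb16, which encodes PLZF, was at 0.581 and 0.205 CPM in cDC1 against 18.3 and 20.4 in cDC2 (49.2-fold lower). Bhlhe40, a repressor that had the highest mean level per length, was at 173 and 109.9 CPM in cDC1 against 1564 and 1515 in cDC2 (10.9-fold lower; log2 fold change -3.44, SE 0.25, edgeR adjusted p = 1.8e-04). Prdm1 (19.8-fold), which encodes Blimp-1, Tbx21 (7.75-fold), which encodes T-bet, Tcf4 (3.62-fold), the E protein E2-2, and Bcl6 (2.65-fold) were lower too.

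Ion channels included genes best known from nerve and muscle. Of 65 tested, 8 (13 without cDC1 replicate 3) were higher and 15 (29 without cDC1 replicate 3, 7 without cDC2 replicate 2, 8 without cDC2 replicate 3) lower. The voltage-gated sodium channel gene Scn3a was at 0.0342 and 0.137 CPM in cDC1 against 72.4 and 75.4 in cDC2 (864-fold lower; log2 fold change -9.72, SE 0.36, edgeR adjusted p = 2.1e-05). The ryanodine receptor gene Ryr3, a calcium release channel, was at 0.0855 and 0.598 CPM in cDC1 against 81.2 and 92.6 in cDC2 (254-fold lower). The voltage-gated calcium channel genes Cacnb2, at 15.8 and 15.1 CPM in cDC1 against 1.48 and 1.07 in cDC2, and Cacna1e, at 81.5 and 58.6 CPM in cDC1 against 6.07 and 9.81 in cDC2, were 12.1-fold and 8.83-fold higher, as was Trpm2 (4.42-fold), a cation channel opened by oxidative stress.

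Cyclic nucleotide and G-protein signalling was 1 of the 6 classes with more members higher than lower, 18 (9 without cDC2 replicate 2, 8 without cDC2 replicate 3) against 12 of 60. Pde1b, a calcium-dependent phosphodiesterase, was at 207 and 260.3 CPM in cDC1 against 13.9 and 12.6 in cDC2 (17.6-fold higher; log2 fold change 4.14, SE 0.19, edgeR adjusted p = 3.6e-05). Gna15, a G-protein alpha subunit coupled to phospholipase C, was at 52.6 and 53.9 CPM in cDC1 against 4.34 and 3.94 in cDC2 (12.9-fold higher). The adenylyl cyclase gene Adcy4 (8.35-fold) and Gnb4 (3.89-fold) were higher. Rgs12 was at 46 and 59.2 CPM in cDC1 against 249.7 and 235 in cDC2 (4.61-fold lower). The phosphodiesterase gene Pde4d was at 1.68 and 1.97 CPM in cDC1 against 7.73 and 8.12 in cDC2 (4.35-fold lower), while Pde4b was 2.92-fold lower. Gnai2, which relays chemokine receptor signals and was the most abundant per length, was at 1084 and 981 CPM in cDC1 against 1110.3 and 1045 in cDC2 (adjusted p = 0.797).

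Lipid genes had 16 (8 without cDC2 replicate 2, 9 without cDC2 replicate 3) higher and 27 lower of 81. Plpp1, a phosphatase of lysophosphatidic and phosphatidic acid, was at 124 and 99.5 CPM in cDC1 against 0.324 and 0.211 in cDC2 (418-fold higher; log2 fold change 8.70, SE 0.28, edgeR adjusted p = 1.4e-05). Pltp, which moves phospholipid between lipoproteins, was at 0.103 and 0.0684 CPM in cDC1 against 44.6 and 48.4 in cDC2 (544-fold lower). The transporter gene Abca9 was at 0.599 and 0.564 CPM in cDC1 against 127 and 117 in cDC2 (210.0-fold lower; log2 fold change -7.71, SE 0.20, edgeR adjusted p = 1.3e-05). Of the eicosanoid genes, Ptgs2, which encodes an inducible cyclooxygenase, was 39.6-fold lower and the 5-lipoxygenase gene Alox5 10.8-fold lower. The fatty acid carrier gene Fabp5 (11.1-fold) and Dgat1 (5.72-fold), which makes triglyceride, were lower as well. Pld4, an endosomal nuclease that had the highest mean level per length, was at 803 and 798 CPM in cDC1 against 781 and 738 in cDC2 (adjusted p = 0.73).

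Amino acid and nucleoside genes were near the background in both directions, 7 (11 without cDC1 replicate 3, 4 without cDC2 replicate 2) higher and 9 (14 without cDC1 replicate 3, 4 without cDC2 replicate 2, 5 without cDC2 replicate 3) lower of 50, with large differences in transporters. Slc7a8, a carrier of neutral amino acids, was at 31.2 and 36.5 CPM in cDC1 against 1.85 and 2.02 in cDC2 (17.5-fold higher; log2 fold change 4.13, SE 0.20, edgeR adjusted p = 4.9e-05), whereas Slc7a11, the cystine carrier, was at 2.45 and 2.0 CPM in cDC1 against 28.5 and 29.5 in cDC2 (13-fold lower). Slc43a2 was at 29.4 and 38.4 CPM in cDC1 against 242 and 209 in cDC2 (6.64-fold lower). Adenosine kinase, Adk, was at 57.4 and 48.3 CPM in cDC1 against 17.1 and 14.1 in cDC2 (3.38-fold higher), the serine synthesis gene Psat1 and the spermidine synthase gene Srm were 2.4-fold and 2.55-fold higher, and glutamine synthetase, Glul, and the nucleoside transporter gene Slc29a1 were 2.95-fold and 2.77-fold lower.

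Iron and heme genes had 3 (7 without cDC1 replicate 3) higher and 9 (4 without cDC2 replicate 2, 5 without cDC2 replicate 3) lower of 28. Fth1, the ferritin heavy chain that stores iron and had the highest mean level per length (398 CPM per kilobase in cDC1 and 1473 in cDC2), was at 1572 and 1190.0 CPM in cDC1 against 5337 and 4881 in cDC2 (3.7-fold lower; log2 fold change -1.89, SE 0.19, edgeR adjusted p = 6.6e-04). The heme exporter gene Flvcr1 was at 35 and 31.6 CPM in cDC1 against 314 and 304 in cDC2 (9.28-fold lower). The iron exporter gene Slc40a1, which is also a marker of red pulp macrophages, was at 4.0 and 3.74 CPM in cDC1 against 20.9 and 15.9 in cDC2 (4.75-fold lower). Slc31a2, linked to copper transport, was at 44 and 50.5 CPM in cDC1 against 7.6 and 9.12 in cDC2 (5.65-fold higher).

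Nuclear genes of the respiratory chain were the class with the largest share higher in the main test. That lead was small with the block and the length trend removed, at 25 of 74 against 12 of 37 in the unfolded protein response. Of 74 tested, 54 (28 with the length trend removed, 25 with the block and the length trend removed or without cDC2 replicate 3, 16 without cDC2 replicate 2) were higher and none was lower, with a median log2 fold change of 0.81 (range -0.08 to 1.98), and 73 of 74 were above 0. Cox7b, of cytochrome c oxidase, was at 104 and 84.4 CPM in cDC1 against 23.4 and 24.3 in cDC2 (3.95-fold higher; log2 fold change 1.98, SE 0.16, edgeR adjusted p = 3.3e-04). Atp5e, of the ATP synthase, was at 121 and 88.4 CPM in cDC1 against 32.4 and 32.3 in cDC2 (3.23-fold higher; log2 fold change 1.69, SE 0.19, edgeR adjusted p = 0.00105). Cytochrome c, Cycs (3.04-fold), Ndufa4 (2.92-fold) and Uqcrb (2.87-fold), of complex III, were higher too. Atp5b, the most abundant per length, was at 1247 and 1162 CPM in cDC1 against 864 and 805 in cDC2 (1.44-fold higher); it was not called with the trend on gene length removed, with the replicate block or without either cDC2 library. These are short genes: the median exon length was 1737 bases against 3402 over all genes tested. Removing each library's trend on gene length in the fit moved the median of all genes from 0.03 to -0.12. It left 28 members of the class higher, 0 lower and a median of 0.42. The cDC1 replicates differ along length too, and processed pseudogenes, most of them short copies of spliced transcripts, had 217 members higher and 45 lower of 2386 (9.09% and 1.89%, both below the shares of all genes). Beyond this adjustment, the part of gene length in the class result was not tested. Both cDC1 libraries lay above both cDC2 libraries in 71 of the 74 members, against 34.9% of all genes above and 33.2% below.

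**Figure D4:**
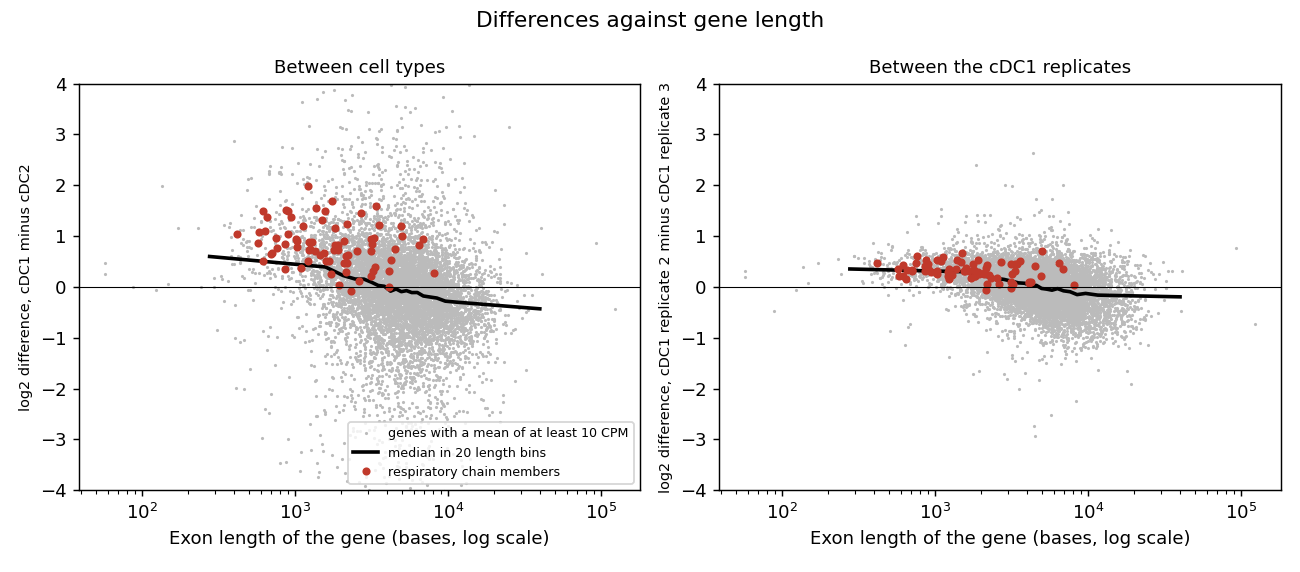
log2 difference of 8407 genes averaging 10 CPM or more against exon length on a log scale, between the cell types (left, cDC1 minus cDC2) and between the cDC1 libraries (right, replicate 2 minus replicate 3), with the median in 20 length bins as a line and respiratory chain members in red. In both panels short genes lie higher, and the vertical axis stops at 4, beyond which 183 genes lie on the left and 2 on the right.

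The unfolded protein response, which matches the folding capacity of the endoplasmic reticulum to its load, had 13 (8 without cDC2 replicate 2) higher and 4 (2 with the replicate block or without cDC2 replicate 3, 7 without cDC1 replicate 2, 1 without cDC2 replicate 2) lower of 37. Manf, a secreted protein of the stressed endoplasmic reticulum, was at 129 and 91.7 CPM in cDC1 against 22.3 and 25.4 in cDC2 (4.62-fold higher; log2 fold change 2.21, SE 0.21, edgeR adjusted p = 5.1e-04). Sdf2l1, a partner of its chaperones, was at 229 and 223 CPM in cDC1 against 73 and 60.7 in cDC2 (3.38-fold higher). Hspa5, the chaperone BiP, was at 2486 and 2174 CPM in cDC1 against 1074 and 1016 in cDC2 (2.23-fold higher; not called without cDC2 replicate 2). Creld2 (3.19-fold), the disulfide isomerase gene Pdia6 (2.44-fold), Hyou1 (2.26-fold) and Dnajc3, a partner of BiP (2.29-fold; not called without cDC2 replicate 2) were higher. The stress sensor PERK, encoded by Eif2ak3, went the other way, at 45.8 and 50.5 CPM in cDC1 against 117 and 102 in cDC2 (2.28-fold lower; log2 fold change -1.19, SE 0.15, edgeR adjusted p = 0.00189). The cytosolic heat shock gene Hspa1b, the most abundant per length, varied within both groups: it was at 783 and 2564 CPM in cDC1 against 2648 and 963 in cDC2, and the groups overlapped. The class median was 0.10, and -0.0025 with the trend on gene length removed.

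Promoters of these chaperone genes were read for the endoplasmic reticulum stress element (ERSE), which binds ATF6 with NF-Y. Its letters are CCAAT, any 9 bases, and CCACG, searched on both strands of the same 250 bases. It lay in 6 of the 35 promoters of the class found in the table (17.1%), against 0.153% of promoters of all tested genes, 22 in number. Among genes called at least 4-fold higher it lay in 1 of 459 promoters (0.218%), and among those at least 4-fold lower in 0 of 931. Of the 6 genes, 5 were higher in cDC1 (Hspa5, Pdia6, Dnajc3, Creld2 and Syvn1). Of all class members tested 35.1% were higher, and of all genes tested 13.7%. A link of the element with the direction was not tested. Canx, the calnexin gene, was at 407 and 560.2 CPM in cDC1 against 340.3 and 344 in cDC2 and was not called. Syvn1, a ubiquitin ligase of misfolded proteins, differed least of the 5. The element is known from such genes, and binding was not measured. The 150 bases before the start are shown as above for Hspa5 (chr2:34771940-34772089, plus strand), Pdia6 (chr12:17266439-17266588, plus strand), Dnajc3 (chr14:118937782-118937931, plus strand) and Creld2 (chr15:88819496-88819645, plus strand), the last with the motif on the opposite strand.
Hspa5: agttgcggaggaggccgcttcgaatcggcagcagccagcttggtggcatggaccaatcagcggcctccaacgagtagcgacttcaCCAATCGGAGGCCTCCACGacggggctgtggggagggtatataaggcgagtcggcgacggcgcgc
Pdia6: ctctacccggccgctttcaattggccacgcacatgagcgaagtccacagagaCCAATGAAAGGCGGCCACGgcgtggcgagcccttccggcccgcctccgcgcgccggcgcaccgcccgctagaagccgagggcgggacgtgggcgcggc
Dnajc3: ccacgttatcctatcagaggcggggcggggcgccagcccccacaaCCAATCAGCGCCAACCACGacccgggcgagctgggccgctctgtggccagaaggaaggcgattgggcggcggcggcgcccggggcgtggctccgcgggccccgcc
Creld2: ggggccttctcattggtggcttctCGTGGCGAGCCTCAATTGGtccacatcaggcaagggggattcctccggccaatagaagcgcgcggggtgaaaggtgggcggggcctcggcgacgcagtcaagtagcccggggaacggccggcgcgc

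Autophagy genes had 3 (0 without cDC2 replicate 2 or cDC2 replicate 3) higher and 13 (22 without cDC1 replicate 3, 4 without cDC2 replicate 2, 5 without cDC2 replicate 3) lower of 38. Gabarapl1 was at 33.6 and 34.7 CPM in cDC1 against 119 and 115 in cDC2 (3.43-fold lower; log2 fold change -1.78, SE 0.14, edgeR adjusted p = 2.6e-04). Ulk1, the kinase that starts autophagy, was at 16 and 18.7 CPM in cDC1 against 49.9 and 52.3 in cDC2 (2.95-fold lower). Sqstm1, the cargo receptor p62 and the most abundant per length, was at 505 and 565 CPM in cDC1 against 920.4 and 795 in cDC2 (1.6-fold lower). Atg3, which helps lipidate the autophagosome protein LC3, was at 212 and 184 CPM in cDC1 against 114 and 110.3 in cDC2 (1.77-fold higher). Both lost their call without either cDC2 library.

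Of 34 Bcl2 family and death genes, 5 (11 without cDC1 replicate 3) were higher and 7 (11 with no filter, 12 without cDC1 replicate 2, 4 without cDC2 replicate 2) lower. These shares, 14.7% and 20.6%, were near the 13.7% and 15.2% of all genes. Single proapoptotic genes lay on both sides. Bid was at 80.5 and 86.9 CPM in cDC1 against 23.8 and 26.5 in cDC2 (3.33-fold higher; log2 fold change 1.73, SE 0.15, edgeR adjusted p = 3.8e-04), Bcl2l14 at 115 and 82.5 CPM in cDC1 against 17.8 and 15.5 in cDC2 (5.94-fold higher), and Bad was 2.48-fold higher. Bcl2l11, which encodes BIM, was 2.41-fold lower and Bmf was at 9.44 and 7.56 CPM in cDC1 against 23.5 and 29 in cDC2 (3.09-fold lower). The caspase 8 inhibitor gene Cflar was 2.24-fold lower and Birc2, a ubiquitin ligase of TNF receptor complexes, was at 58.3 and 55.7 CPM in cDC1 against 143 and 154 in cDC2 (2.6-fold lower). Pmaip1, which encodes NOXA and had the highest mean level per length, was at 1217 and 783 CPM in cDC1 against 1296 and 1483 in cDC2 and was not called (adjusted p = 0.169).

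Tetraspanins, which organise receptors in the membrane, and the Ms4a genes had 6 higher and 13 lower of 30. Cd81 was at 546 and 445 CPM in cDC1 against 82.6 and 74.4 in cDC2 (6.31-fold higher; log2 fold change 2.66, SE 0.17, edgeR adjusted p = 1.2e-04) and Cd9 was 2.77-fold higher. Ms4a4c was at 5.99 and 6.22 CPM in cDC1 against 121 and 145 in cDC2 (21.8-fold lower; log2 fold change -4.45, SE 0.18, edgeR adjusted p = 2.6e-05), and Tmem176b, which encodes a related intracellular channel, was 18.7-fold lower. Ms4a1, which encodes CD20, was at 35.2 and 21 CPM in cDC1 against 5.83 and 7.31 in cDC2 (4.27-fold higher); it is also a marker of B cells, whose other 9 markers summed with it to 40.3 and 27.0 CPM in cDC1 and 44.1 and 55.7 CPM in cDC2. Ms4a genes include close copies, so the split of reads among them is uncertain.

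Among genes in none of the lists, those with the largest differences in each direction were of several kinds. Those lower in cDC1 included the Toll-like receptor genes Tlr7 and Tlr5. No class of these receptors was counted, so no direction is given for their family. Gcsam, a signalling adaptor known from germinal centre B cells, was at 249.8 and 259 CPM in cDC1 against 0.072 and 0.141 in cDC2 (2392-fold higher; log2 fold change 11.19, SE 0.27, edgeR adjusted p = 1.3e-05). The orphan receptor gene Gpr141b was at 518 and 399.5 CPM in cDC1 against 0.288 and 0.246 in cDC2 (1717-fold higher). The collagen prolyl hydroxylase gene P3h2 was at 125 and 115 CPM in cDC1 against 0.18 and 0.211 in cDC2 (614-fold higher). Gramd2 was at 48.9 and 51.8 CPM in cDC1 against 0.162 and 0.0352 in cDC2 (510.2-fold higher). Clnk, an adaptor of antigen receptor signalling, was at 23.3 and 20.9 CPM in cDC1 against 0 and 0.0352 in cDC2, and with 2 counts in cDC2 no fold is given. On the cDC2 side, Tlr7, the sensor of single-stranded RNA, was at 0.137 and 0.0171 CPM in cDC1 against 109 and 124 in cDC2 (1519-fold lower; log2 fold change -10.53, SE 0.42, edgeR adjusted p = 2.6e-05). Tlr5, the receptor for flagellin, was at 0.0342 and 0.103 CPM in cDC1 against 31.8 and 25.7 in cDC2 (420.2-fold lower). Slc27a2, a fatty acid transporter, was at 0.0513 and 0.0513 CPM in cDC1 against 13.2 and 16.7 in cDC2 (292-fold lower). Tmem132c was at 0.0171 and 0.103 CPM in cDC1 against 24.3 and 17.6 in cDC2 (349.8-fold lower).

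The other 4 libraries took no part in the test. Of the 174 genes named by the rule and called, 171 had both Zeb2 mutant cDC1 libraries on the same side of both Irf8 mutant cDC2 libraries as in wild type. Of all 5409 called genes this held for 5074. Over all 18749 genes, the mutant libraries did not overlap with the cDC1 above in 33.5% and with the cDC1 below in 34.2%. These libraries differ in genotype as well as cell type, which cannot be told apart in them, so the values are a description. Xcr1 was at 687 and 658 CPM in Zeb2 mutant cDC1 and 6.28 and 6.16 CPM in Irf8 mutant cDC2, Cst3 at 8739 and 10774 CPM in Zeb2 mutant cDC1 and 565 and 543 CPM in Irf8 mutant cDC2, Dscam at 0.275 and 0.406 CPM in Zeb2 mutant cDC1 and 221 and 188 CPM in Irf8 mutant cDC2 and Cybb at 4.06 and 4.54 CPM in Zeb2 mutant cDC1 and 547 and 526 CPM in Irf8 mutant cDC2.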

How the data were processed

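RNA of sorted splenic dendritic cells was sequenced, and gene counts of 8 libraries were deposited. The authors' tools were bcl2fastq, STAR, Subread featureCounts and Salmon on GRCm38, per the submitters' processing notes, and no source used here gives the strand setting or the handling of shared reads. The deposited count column was tested. The authors' deposited CPM is the count scaled to the library total, their FPKM is that CPM per kilobase of exon, and these and the deposited TPM entered no test. Of 55487 gene IDs, 54870 had identical coordinates in GENCODE M21.

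Genes were filtered with filterByExpr, scaled by TMM and tested with edgeR 4.0.16 in R 4.3.3 (quasi-likelihood, robust) on the 4 wild-type libraries, with Benjamini-Hochberg adjustment over 18749 genes at 0.05. The script was tested on simulated data. Printed CPM values are TMM-scaled counts. A group at 0 was set to a floor of 3 counts for a lower bound, and no fold was given for 1 to 3 counts, which covers counting error only. Alternatives were RLE size factors, DESeq2 1.42.0, 2 other filters, all 8 libraries in 1 fit, removal of the trend on gene length, the replicate number as a block, both together, and each library left out. Genes were named by rule (the 2 most changed genes in each direction per class with at least 5 CPM in the higher group and groups that do not overlap, the member with the highest mean level per kilobase, the 4 subset markers, and 6 genes in each direction outside the lists), which gave 194 genes. A further 112 were chosen after their values were seen. The members and lists were chosen with earlier results of these data known. Promoter sequences are from RefSeq, GRCm38.p6. A functional class and some genes are not reported here.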

Additional observations from a re-analysis of the deposited data

How the results depend on the processing

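With each library left out in turn, the number of genes higher in cDC1 ranged from 929 to 4153 and the number lower from 1415 to 4691, against 2562 and 2847. Under the other 8 alternatives the higher count lay between 1852 and 2932 and the lower count between 2658 and 3624. With the replicate block the counts were 2135 and 2658. Deviations of same-numbered libraries from their group means had a correlation of -0.012 across all genes tested, those with low counts included. The cDC1 replicates also differed along gene length, so this value cannot exclude that same-numbered libraries share an animal or a sort. The main test did not take the numbers as pairs. Of the 174 genes named by rule and called, 145 kept their call under all 12 alternatives. Of 111 called genes named after their values were seen, 107 did. Most of the 111 were picked because they kept it, so this count is no measure of how stable the calls are. The genes whose log2 fold change turned were uncalled at first. With the length trend removed, and then with the block as well, Gpx1 was at -0.32 and -0.32, Cd74 at -0.19 and -0.19, Rab7 at -0.057 and -0.061, and Pld4 at -0.038 and -0.037. With single libraries left out, Gpx1 ranged from -0.049 to 0.204, Cd74 from -0.031 to 0.337, Gnai2 from -0.158 to 0.00615, Hspa1b from -1.21 to 0.779 (0.482 without cDC1 replicate 2) and Tspan13 from -0.468 to 0.0694. The cause of these turns was not tested. With 2 libraries a group, the spread between them (common biological coefficient of variation 0.266) rests on few libraries, and the part of depth in which small differences can be called was not tested.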
